A study of Mus musculus with 8 samples.

Results

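The oligodendrocyte lineage genes described here are 9 of the 26229 genes in the authors' deposited table, which compares RNA of H2BE knockout and wild-type cortical neurons. They were taken by symbol and are Pdgfra, Olig1, Olig2, Sox10 and Lhfpl3, which mark precursors or the whole lineage, and Mog, Mbp, Cnp and Ugt8a, which serve myelin. In the knockout (KO), H2bc21, the gene of a neuronal variant of histone H2B called H2BE, carries a knock-in of the red fluorescent protein mCherry, per the labels (H2BE-KO/mCherry-KI). The wild type (WT) is not labelled as carrying it. Both groups were primary neurons from the cortex of embryos at E16.5, cultured for 12 days, with 4 biological replicates each. Information on strain, on pooling of embryos and on any treatment against dividing cells was not given in the sources used here. Where replicates are not stated to be separate cultures, the p values measure only the spread between these libraries.

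Oligodendrocytes wrap axons of the central nervous system in myelin, a stack of lipid-rich membrane held together by a few abundant proteins. They arise from precursor cells that divide in response to platelet-derived growth factor (PDGF) through the receptor PDGFRA. The transcription factors OLIG2 and SOX10 set and keep lineage identity, and myelin genes are switched on as precursors leave the cell cycle. In mouse cortex most of this maturation happens after birth, so a culture from embryonic cortex is prepared for its neurons, and other cells are carried along.

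Mean normalized counts, adjusted p values, log2 fold changes and their standard errors (SE) are those of the authors' deposited table, with folds written as KO over WT. A mean normalized count is the count of a gene divided by library size factors and averaged over all 8 libraries. The KO and WT means given below are implied by that average and the fold change, not measured per library, and values per library were not analysed here. The direction is an inference, since the table's name puts WT before KO and its header gives no direction. H2bc21, the targeted gene, was read accordingly at 185 normalized counts in KO and 2033 in WT (log2 fold change -3.45, SE 0.19, adjusted p of the deposited DESeq2 Wald test 4.49e-68). Were the sign the opposite, every "higher" and "lower" in the text would swap.

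The genes were expressed at very different levels, and Sox10, which defines the lineage, was close to 0. Per kilobase of exon, the mean normalized count was 659 for Lhfpl3, 138 for Mbp, 113 for Mog, 106 for Cnp, 57.2 for Olig1, 20.4 for Olig2, 11.9 for Ugt8a and 3.51 for Pdgfra. The median of all tested genes was 105 on the same scale, so the members lie on both sides of it. Mbp, Mog and Cnp are neighbours in this order, and levels per library, which would show whether they differ beyond their spread, were not analysed here. Sox10 had a mean normalized count of 0.294, under the mean of 3 that serves as a floor, and summed to 2.35 over all 8 libraries.

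Markers of committed precursors and of mature oligodendrocytes were also at or near the floor, and these genes were chosen for their levels after the values were seen. The authors' deposited table gave mean normalized counts of 1.05 for Gpr17, 1.55 for Bcas1 and 0.973 for Enpp6, all markers of newly committed cells. It gave 1.39 for Mag, 1.27 for Mobp, 0.925 for Mal, 1.48 for Cldn11 and 0.695 for Opalin, all genes of myelin. In the wider list of 34 myelin genes, 10 genes had a mean normalized count below 3 and 14 below 10. The 11 neuron markers ranged from 2650 to 90482 mean normalized counts, with a median of 3926 per kilobase against 109 per kilobase for the 4 myelin members. With SOX10 and the mature markers this low, the label fits these genes as a list, and their counts are not described here as the counts of oligodendrocytes. In bulk RNA of this kind, fewer cells of a type and less RNA per cell cannot be told apart.

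**Figure D1:**
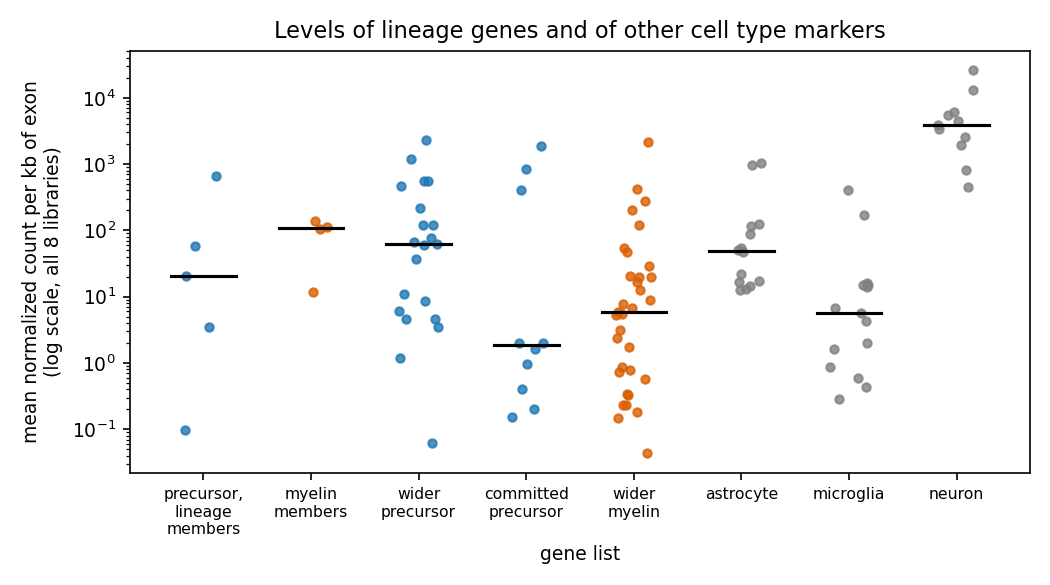
Mean normalized count per kilobase of exon (log axis) over all 8 libraries for the members, the wider lineage lists and the markers of other cell types, 1 point per gene, with blue for precursor and lineage lists, orange for myelin lists, grey for other cell types and a black line at each median. Sox10 sits lowest of the members, the other members spread from 3.51 to 659, and the neuron markers have a median of 3926.

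Of the 9 genes, 8 were tested, and 4 passed an adjusted p of 0.05, with Mog and Cnp higher in KO and Lhfpl3 and Ugt8a lower. This is 50% of the tested members, against 21.8% of all 18085 tested genes, of which 11.0% were higher and 10.9% lower. With so few members, the share is a description and was not tested. Sox10 did not pass the authors' filter on low counts and has no adjusted p. Pdgfra, Olig1, Olig2 and Mbp did not pass the threshold.

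The 4 genes that passed are shown with the 250 bases before their RefSeq start, since they moved in opposite directions. RefSeq windows on GRCm38.p6 were matched for 6 of the 9 members. Capitals mark letters that match an E-box, CANNTG, the core bound by basic helix-loop-helix factors such as OLIG2, or a SOX core, ACAAAG or ACAATG, on either strand. The windows are chr17:37023399-37023648 on the minus strand for Mog, chr11:100574689-100574938 on the plus strand for Cnp, chr5:22745804-22746053 on the plus strand for Lhfpl3 and chr3:125938653-125938902 on the minus strand for Ugt8a, each printed 5′ to 3′ in the direction of transcription.
Mog: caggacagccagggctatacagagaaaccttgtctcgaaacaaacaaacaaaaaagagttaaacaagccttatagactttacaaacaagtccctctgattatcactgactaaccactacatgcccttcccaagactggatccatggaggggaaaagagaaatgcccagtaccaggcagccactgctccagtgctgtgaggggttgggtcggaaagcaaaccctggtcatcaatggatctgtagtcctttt
Cnp: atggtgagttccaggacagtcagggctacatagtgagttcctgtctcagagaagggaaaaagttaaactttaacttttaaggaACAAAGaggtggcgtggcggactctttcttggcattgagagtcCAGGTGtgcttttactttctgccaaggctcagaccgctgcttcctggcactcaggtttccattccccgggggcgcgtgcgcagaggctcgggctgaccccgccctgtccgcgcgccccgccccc
Lhfpl3: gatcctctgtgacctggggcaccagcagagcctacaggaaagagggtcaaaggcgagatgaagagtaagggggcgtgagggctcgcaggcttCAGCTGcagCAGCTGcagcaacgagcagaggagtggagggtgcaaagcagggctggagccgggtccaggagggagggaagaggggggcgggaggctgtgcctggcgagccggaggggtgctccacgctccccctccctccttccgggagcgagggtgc
Ugt8a: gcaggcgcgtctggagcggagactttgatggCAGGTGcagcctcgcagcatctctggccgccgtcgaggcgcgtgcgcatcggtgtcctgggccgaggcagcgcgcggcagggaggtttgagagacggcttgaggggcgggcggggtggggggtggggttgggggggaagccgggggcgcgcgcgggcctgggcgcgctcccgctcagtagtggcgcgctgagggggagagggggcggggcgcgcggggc
The Cnp window held 1 E-box, CAGGTG, and 1 SOX core, ACAAAG. The Lhfpl3 window held 2 E-boxes, both CAGCTG, and no SOX core, and the Ugt8a window held 1 E-box, CAGGTG, and no SOX core. The Mog window held neither, which says only that these letters are not in it. Of 32851 windows of the same length, 66.2% held an E-box and 25.2% a SOX core, so a match is common. GC content was 46.8% for Mog, 57.2% for Cnp, 67.2% for Lhfpl3 and 76.8% for Ugt8a. These matches are letters in a window, and no binding was measured.

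Among the precursor and lineage genes, Lhfpl3 was lower in KO and no other member passed the threshold. Lhfpl3 (ENSMUSG00000106379, chr5:22746059-23275597, plus strand, mm10) encodes a tetraspan membrane protein of the LHFPL family and is used as a precursor marker in brain cell atlases. Its implied mean was 1574 normalized counts in KO and 2659 in WT. In the authors' deposited table its log2 fold change was -0.76 (SE 0.26, 95% interval -1.27 to -0.25, adjusted p 0.0215), a 1.69-fold lower level in KO. It was the most abundant member per kilobase, as the levels above show.

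An overlapping transcript moved the same way as Lhfpl3. The long non-coding RNA gene A930003O13Rik lies on the opposite strand and shares 567 exon bases with Lhfpl3, which is 17.6% of the Lhfpl3 exon length. Its implied mean was 64.2 in KO and 204 in WT, and in the authors' deposited table its log2 fold change was -1.67 (SE 0.30, adjusted p 1.80e-06). The kit is stranded, but the use of strand in counting was not given in the sources used here, so the reads of these genes cannot be told apart in the shared bases. This RNA had 134 mean normalized counts in all, and Lhfpl3 had 2117.

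Pdgfra (ENSMUSG00000029231, chr5:75152292-75198215, plus strand), the receptor through which PDGF drives precursor division, was measured at an implied 19.9 normalized counts in KO and 50.6 in WT. Its log2 fold change in the authors' deposited table was -1.35 (SE 0.60, 95% interval -2.52 to -0.18), and its adjusted p of 0.0893 missed the threshold. At this SE a log2 fold change of 1.52 in size would have been needed to pass. Pdgfra is also expressed by fibroblasts of the meninges, whose markers are given further on. Kit, a receptor gene of the same class in the same gene cluster, was singled out after its values were seen and was at -1.43 on the log2 scale in the authors' deposited table (SE 0.31, adjusted p 1.11e-04).

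Olig1 and Olig2 are neighbouring genes of basic helix-loop-helix transcription factors, 41.1 kilobases apart on chromosome 16. OLIG2 is required to specify the lineage, and OLIG1 acts in its maturation. Olig2 (ENSMUSG00000039830, chr16:91225457-91228677, plus strand) had an implied 64.7 normalized counts in KO and 38.7 in WT. Its log2 fold change was 0.74 in the authors' deposited table (SE 0.62, adjusted p 0.432), with a 95% interval of 0.718-fold to 3.89-fold. Olig1 (ENSMUSG00000046160, chr16:91269772-91271933, plus strand) had an implied 149 normalized counts in KO and 98.9 in WT, with a log2 fold change of 0.59 in that deposited table (SE 0.49, 95% interval -0.38 to 1.55, adjusted p 0.431). Both estimates were above 0 and both intervals included no change, so neither a higher nor a lower level was detectable at this spread.

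Sox10 (ENSMUSG00000033006, chr15:79154908-79165240, minus strand) encodes the HMG-box factor that activates myelin genes with OLIG2 and MYRF. No fold is given for it, since its mean count over both genotypes was under the floor. Nkx2-2, another regulator of precursor differentiation, had a mean normalized count of 0.179 in the authors' deposited table and was likewise not tested.

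**Figure D2:**
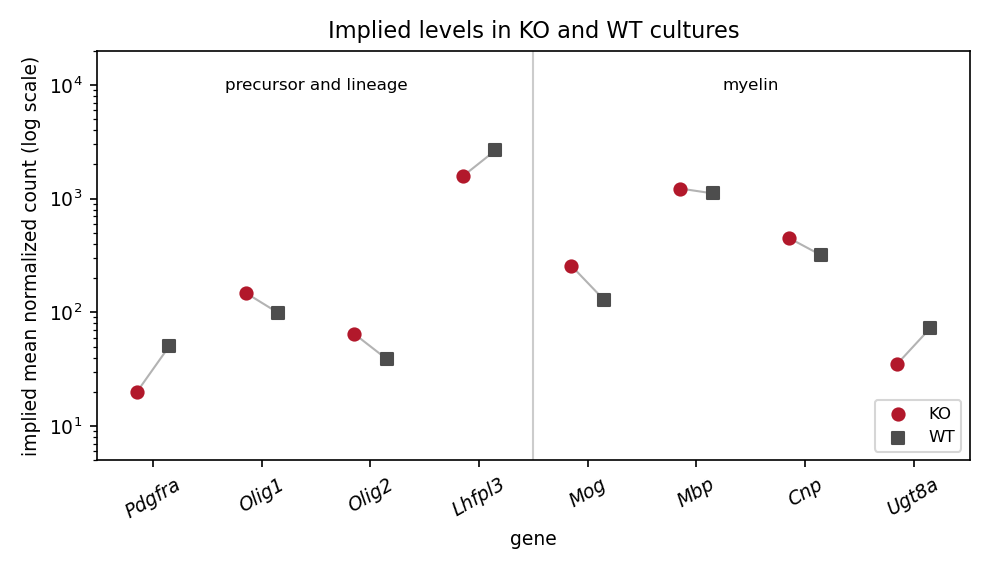
Implied mean normalized counts (log axis) of the 8 tested members in KO, left, and WT, right, joined by a line for each gene. The lines of Mog and Cnp are higher on the KO side, and those of Lhfpl3 and Ugt8a are lower on it.

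Among the myelin genes, Mog and Cnp were higher in KO, Ugt8a was lower and Mbp did not pass the threshold. Mog (ENSMUSG00000076439, chr17:37010743-37023398, minus strand) encodes myelin oligodendrocyte glycoprotein, an immunoglobulin-like protein on the outermost face of the sheath that appears late in maturation. Its implied mean was 256 normalized counts in KO and 128 in WT. In the authors' deposited table its log2 fold change was 0.99 (SE 0.17, 95% interval 0.66 to 1.33, adjusted p 3.42e-07), a 1.99-fold higher level in KO. By p value it ranked 306 among the 18085 tested genes and had the smallest adjusted p of the 8 tested members.

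Some other myelin genes were less abundant than Mog per length. Against its 113 mean normalized counts per kilobase, Mag had 0.342 and Opalin 0.236, both genes that mature oligodendrocytes express strongly. No annotated gene shares exon bases with Mog on either strand.

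Cnp (ENSMUSG00000006782, chr11:100574904-100591729, plus strand) encodes the cyclic nucleotide phosphodiesterase that keeps cytoplasmic channels in myelin open, and it is expressed from precursors onward. Its implied mean was 451 normalized counts in KO and 317 in WT. In the authors' deposited table its log2 fold change was 0.51 (SE 0.20, 95% interval 0.12 to 0.89, adjusted p 0.0446), close to the threshold. Without the authors' filter on low counts the adjusted p was 0.0644 and the call was lost. Dnajc7, on the opposite strand, shares 154 exon bases with Cnp, 4.23% of its exon length. Dnajc7 had 15.3 times the mean count of Cnp and a log2 fold change of -0.13 in the authors' deposited table (adjusted p 0.251), the opposite sign.

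Ugt8a (ENSMUSG00000032854, chr3:125865271-125938619, minus strand) encodes the ceramide galactosyltransferase that makes galactosylceramide, the main glycolipid of myelin. Its implied mean was 35.4 normalized counts in KO and 72.3 in WT. In the authors' deposited table its log2 fold change was -1.03 (SE 0.36, 95% interval -1.74 to -0.32, adjusted p 0.0247), a 2.04-fold lower level in KO. It was the least abundant of the myelin members and moved against Mog and Cnp.

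Mbp (ENSMUSG00000041607, chr18:82475146-82585637, plus strand) encodes myelin basic protein, which binds the cytoplasmic faces of the membrane together. The same gene makes Golli transcripts in neurons and immune cells from an upstream start, and a count per gene cannot separate them from the myelin forms. Its implied mean was 1227 normalized counts in KO and 1112 in WT. The log2 fold change in the authors' deposited table was 0.14 (SE 0.21, 95% interval -0.26 to 0.54, adjusted p 0.679), so values on both sides of 0 lie within the interval.

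**Figure D3:**
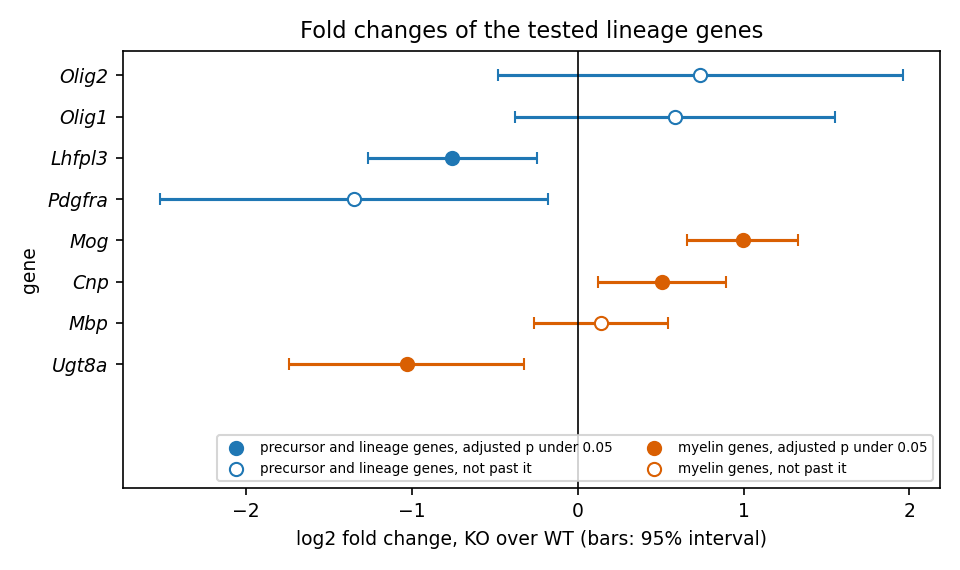
Log2 fold change, KO over WT, of the 8 tested members with 95% intervals, precursor and lineage genes above myelin genes. Mog at 0.99 and Cnp at 0.51 lie right of 0, Lhfpl3 at -0.76 and Ugt8a at -1.03 lie left of 0, and the intervals of Olig1, Olig2 and Mbp cross it.

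Precursor and myelin genes each held estimates on both sides of 0. Of the 4 tested precursor and lineage members, 1 was lower in KO and 3 did not pass, and their median log2 fold change was -0.09. Of the 4 myelin members, 2 were higher and 1 was lower, with a median of 0.33, beside -0.02 over all tested genes. Of the 16 pairs of a precursor and a myelin gene, 4 had 95% intervals that did not overlap, namely Pdgfra or Lhfpl3 with Mog or Cnp. That is 25% of these pairs, beside 18.9% of all pairs of tested genes in the table. In the other 12 pairs they overlapped. Summed over members, the implied counts were 1808 in KO and 2848 in WT for the precursor group, most of it Lhfpl3, and 1969 in KO and 1630 in WT for the myelin group, most of it Mbp.

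The members also differed in how precisely they were measured. The spread between libraries was read from the SE as an implied coefficient of variation, which assumes negative binomial counts and equal size factors. It was 14.9% for Mog, against a median of 22.4% for the 500 tested genes nearest in mean count, and 7.2% of those genes had a smaller SE. For Lhfpl3 it was 25.4%, against 11.8% for genes of like count, and 93.0% of them had a smaller SE. Olig1 and Olig2 had larger implied values still, at 47.3% and 59.3%, against 25.7% and 34.8% for genes of like count. Pdgfra was at 55.4%, against 40.4%. Ugt8a, Cnp and Mbp were at 32.4%, 18.5% and 19.9%, against 34.6%, 17.5% and 13.3%. The 4 tested precursor and lineage members thus all had a larger implied coefficient than the median gene of like count. The myelin members lay on both sides of it. This spread is derived from the fitted SE and was not measured from values per library.

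**Figure D4:**
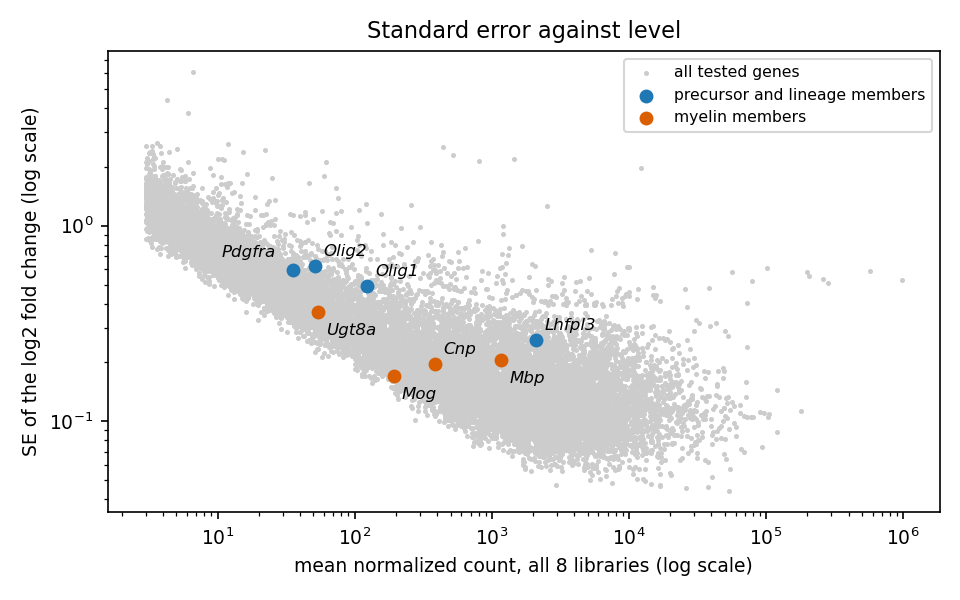
SE of the log2 fold change against mean normalized count for all 18085 tested genes (grey) and the 8 tested members (both axes log). Pdgfra, Olig1, Olig2 and Lhfpl3 lie in the upper part of the grey cloud and Mog, with an SE of 0.17, at its lower edge.

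Other genes of the lineage were counted from wider lists, again at the threshold of 0.05 and beside the 21.8% of all tested genes that passed it. Of 20 tested precursor genes beyond the members, 5 were higher and 4 lower in KO (45% called), with a median log2 fold change of 0.04. The authors' deposited table gave higher levels of the proteoglycan genes Vcan (log2 fold change 1.93, SE 0.20, adjusted p 2.25e-19) and Ncan (0.46, SE 0.09, adjusted p 4.31e-06). It gave a higher level of Cacng4, an auxiliary subunit of glutamate receptors (0.62, SE 0.12, adjusted p 1.44e-05). The remaining higher genes were Emid1 at 1.62 and Sox8, a relative of Sox10, at 2.27 with 19.2 mean normalized counts. The lower genes in the authors' deposited table were Chst11, a chondroitin sulfotransferase (-0.85, SE 0.17, adjusted p 2.68e-05), Ptprz1, a receptor phosphatase (-0.86), the adhesion gene Megf11 (-0.82) and the transcription factor gene Sox6 (-0.72). Cspg4, which encodes the NG2 proteoglycan used to identify precursors, had 55.6 mean normalized counts and was at -0.52 in the authors' deposited table (SE 0.50, adjusted p 0.503). Many of these genes are also expressed by neurons or astrocytes.

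In the list of committed precursor genes, 0 of 7 tested genes passed in either direction by the authors' DESeq2 Wald test. By that test 1 with a value above 0 and 1 below 0 had an unadjusted p under 0.05, beside at least 28.0% of all tested genes. The genes of highest mean count in this list were the kinase gene Fyn, with a log2 fold change of 0.18 in the authors' deposited table (adjusted p 0.295), and Rras2 at 0.29 (adjusted p 0.441). Of 23 tested genes in the wider myelin list, 4 were higher and 2 lower in KO, with a median of -0.12. The 26.1% called is near the share over the whole table. The authors' deposited table had Ndrg1 at 1.26 (SE 0.22, adjusted p 3.55e-07), the tetraspanin gene Tspan2 at 1.00 (SE 0.20, adjusted p 2.54e-05), the receptor gene Gpr37 at 1.20 (SE 0.25, adjusted p 3.81e-05) and the protease gene Adamts4 at 1.76. The lower genes there were Car2, a carbonic anhydrase (-1.43, SE 0.33, adjusted p 2.21e-04), and Evi2a at -3.19 with 28.6 mean normalized counts.

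Among 20 tested transcription regulators of the lineage, 3 were higher and 1 lower in KO, and this 20% called is near the share of all tested genes. Id4, an inhibitor of differentiation factors, was at 1.26 (SE 0.37, adjusted p 0.00468) in the authors' deposited table, Sox5 at 0.78 (adjusted p 0.0117) and Yy1 at 0.35 (adjusted p 0.00932). Prrx1, a homeobox gene also expressed in mesenchyme, was at -3.37 there (SE 0.47, adjusted p 1.01e-10). Myrf, the gene of the factor that turns on myelin genes with SOX10, had 6.68 mean normalized counts and was at 2.08 with an SE of 0.97 in the authors' deposited table (adjusted p 0.109).

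Among the PDGF ligands and the other PDGF receptors, 1 of 5 tested genes was lower and 4 did not pass (20% called), and the median log2 fold change was -0.38. The lower gene was a receptor gene, Pdgfrb, which marks pericytes, at -1.21 (SE 0.43, adjusted p 0.0272) in the authors' deposited table. The ligand genes did not pass and lay on both sides of 0, at -0.26 for Pdgfa (adjusted p 0.183), -0.50 for Pdgfb (adjusted p 0.0508), 0.44 for Pdgfc (adjusted p 0.151) and -0.38 for Pdgfd (adjusted p 0.825) there. Around Ugt8a, 2 of 11 tested genes of galactolipid and sphingolipid metabolism were lower and 9 did not pass, and this 18.2% called is near the share of all tested genes. These were Degs1, the desaturase of ceramide synthesis (-0.67, SE 0.11, adjusted p 4.36e-08), and Galc, the enzyme that degrades galactosylceramide (-0.40, SE 0.12, adjusted p 0.00677), in the authors' deposited table. Fa2h, which hydroxylates the fatty acid of myelin lipids, had 1.72 mean normalized counts and was not tested.

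Signals that other cells send to the lineage, or their receptors, gave 10 higher and 2 lower of 38 tested genes (31.6% called), with a median log2 fold change of 0.22. The smallest adjusted p values in the authors' deposited table were those of the semaphorin gene Sema3f at 2.16 (SE 0.27, adjusted p 1.53e-12) and Lingo1, an inhibitor of precursor differentiation, at 0.87 (SE 0.14, adjusted p 1.60e-08). The thyroid hormone receptor gene Thra was at 0.60 (SE 0.11, adjusted p 2.03e-06) and the muscarinic receptor gene Chrm3 at 0.96 (SE 0.19, adjusted p 1.51e-05) there. The lower genes were Nrp1 at -0.71, a semaphorin receptor, and Chrm1 at -0.57. Neurons express most of these genes.

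**Figure D5:**
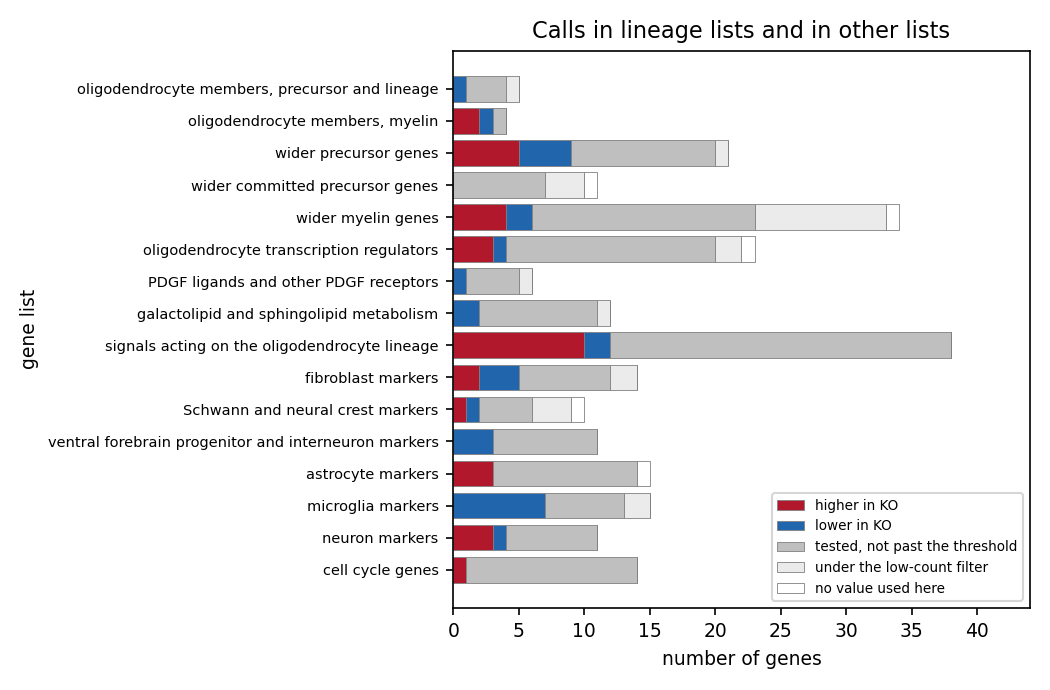
Number of genes in each list that were higher in KO (red), lower in KO (blue), tested but not past the threshold (grey), under the low-count filter (light) or without a value used here (white). Calls in the wider precursor and myelin lists run in both directions, and all 7 calls among microglia markers are lower in KO.

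Markers of other cells that such a culture can hold were counted in the same way, beside the 21.8% of all tested genes. Of 13 tested microglia markers, 7 were lower in KO and 6 did not pass (53.8% called). Their median log2 fold change was -2.29 and their summed level was 594 in KO and 1356 in WT. Examples in the authors' deposited table were the lysosomal gene Cd68 at -2.29 (SE 0.40, adjusted p 5.78e-07) and the receptor gene Csf1r at -3.09 (SE 0.66, adjusted p 5.89e-05). Of 14 tested astrocyte markers, 3 were higher and 11 did not pass (21.4% called, near the share of all tested genes), with a median of 0.90 and a summed level of 25803 in KO and 14063 in WT. These were the glutamate transporter gene Slc1a2 at 0.93, Glul at 0.72 and Aldoc at 2.04 in the authors' deposited table. Of 11 tested markers of ventral forebrain progenitors and interneurons, which share an origin with the earliest cortical precursors, 3 were lower and 8 did not pass (27.3% called, near the share of all tested genes). Among them were Lhx6 at -1.26 and Dlx6 at -1.17 in the authors' deposited table, and all 11 estimates were below 0, with a median of -0.70 and a summed level of 7023 in KO and 13252 in WT.

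Fibroblast markers, some of which are expressed in the same cells as Pdgfra, gave 2 higher and 3 lower of 12 tested (41.7% called). Their median log2 fold change was -0.19, with 7 of the 12 estimates below 0. Their summed level ran the other way, at 3384 in KO and 2697 in WT, and Dcn and Fbln1 made up most of it in KO. In the authors' deposited table Fbln1 was at 1.53 and Dcn at 1.53, while Postn was at -1.82, Mgp at -2.16 and Col6a1 at -0.49. Schwann cell and neural crest markers gave 1 higher, Ngfr at 1.49, and 1 lower, Scn7a at -3.31, of 6 tested in the authors' deposited table (33.3% called), with a median of 0.35 and a summed level of 3530 in KO and 3407 in WT. Among the 11 neuron markers, 3 were higher and 1 was lower (36.4% called), with a median of -0.21 and a summed level of 364334 in KO and 371349 in WT. The higher ones in the authors' deposited table were Tubb3 at 0.74, Rbfox3 at 0.72 and Slc17a7 at 0.75, and the lower one was Gad1 at -1.02. The part of any of these cell types in the values of the lineage genes was not tested.

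The calls depended on how the Wald statistic was read. At an adjusted p of 0.01, which 13.9% of all tested genes passed, Mog remained the only member called, and at 0.1, which 28.0% passed, Pdgfra joined the 4 as a lower gene. With an empirical null, taken from the spread of the statistic over all tested genes, 0.409% of those genes passed and no member was called, and Mog had an adjusted p of 0.161. When a t distribution on 6 degrees of freedom was used, which 0.00553% passed, no member was called either, and Mog had an adjusted p of 0.0661. By the unadjusted normal p, 2 members above 0 and 3 below 0 were under 0.05. Every gene past an adjusted p of 0.1 is under it as well, so at least 28.0% of all tested genes are. The exact share is not given here, and the count of members is a description.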

How the data were processed

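RNA sequencing of polyadenylated RNA was compared between 4 KO and 4 WT libraries, grouped by the genotype in the labels, with a stranded mRNA kit per the labels' protocols. The build mm10, DESeq2 and DESeq are named, without versions, per the submitters' processing notes. Nothing on aligner, counter or annotation was given in the sources used here. Per the file headers, the signal the authors deposited is a mean of normalized counts across libraries, and the log2 fold change has its SE beside it on the same scale. A Wald statistic is the deposited score, and the deposited p-value and adjusted p-value are its normal p and Benjamini-Hochberg adjustment, which were checked to within 0.757%. Tested genes were the 18085 of 26229 with an adjusted p, and 8135 had a p only, all with a mean count of at most 2.99. Depth per library is unknown here, so the SE is the only error, and no model was refitted.

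Signs were turned to KO over WT. Intervals of 95% come from the SE and the normal distribution, and group means were derived from the mean count and the fold change for 4 and 4 libraries. Exon lengths and positions come from the GENCODE M21 annotation of GRCm38, with 26039 genes matched. Promoters are RefSeq windows. The members and the gene lists were chosen with earlier results of these data known. Named in each list were up to 4 called genes, by smallest adjusted p, or the 2 of highest mean count where none was called, and other genes were named after their values were seen. Some genes of the lists are not reported here by name. The alternative readings of the deposited statistics were run on simulated fold changes. Changes were placed only in tested genes with a small SE, a range that leaves out Pdgfra, Olig1, Olig2 and Ugt8a. A required recovery was set only for the reading as reported and for removing the trend with exon length and GC. None was set for the t distribution or the empirical null. The implied means, intervals and coefficients of variation were not part of that test. Alternatives were other thresholds, filters, null distributions and scalings. Python 3.11.15 with numpy 2.4.6, pandas 2.3.3, scipy 1.17.1 and matplotlib 3.10.9 was used.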

Additional observations from a re-analysis of the deposited data

How the results depend on the processing

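No paired analysis was possible because values per library were not analysed here, and for the same reason no replicate was left out in turn. Members higher in KO numbered 2 as reported, 1 at a threshold of 0.01, 1 with no filter on low counts, 0 with the t distribution and 0 with the empirical null. Members lower in KO numbered 2 as reported, 0 at 0.01, 1 with a mean count of at least 100, which leaves out Ugt8a, 0 with the t distribution and 0 with the empirical null. The median of precursor and lineage members was -0.09 as reported and 0.59 with no filter, which adds Sox10. Wider precursor genes higher and lower in KO numbered 5 and 4 as reported, 0 and 0 with the t distribution, and 1 and 0 with the empirical null. Wider myelin genes numbered 4 and 2 as reported, and 0 and 0 with either null. Of 61 member values under alternatives, 48 kept their side of the threshold, 12 lost it and 1 gained it, and none of them turned round. Only centring on the median gene and removing the trend with exon length and GC change the fold change. A turn was therefore possible only in those settings. Under the t distribution and the empirical null, the adjusted p values were 0.159 and 0.842 for Lhfpl3, 0.194 and 0.867 for Cnp, and 0.165 and 0.856 for Ugt8a. Centring on the median gene shifted values by 0.02 and changed no member's call. At a sum of 2.35 normalized counts, Sox10 could not be compared between genotypes.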

Other observations

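Genes of the cell cycle, which would be active in dividing precursors, were measured from a list of 14 genes, all of them tested. Of these, 1 was higher in KO and 13 did not pass (7.14% called, beside 21.8% of all tested genes). The list's median log2 fold change was 0.08. The higher gene was Rrm2, a subunit of ribonucleotide reductase, with an implied 365 normalized counts in KO and 110 in WT and a log2 fold change of 1.73 in the authors' deposited table (SE 0.24, adjusted p 2.31e-10). The genes within 500 kilobases of the called members were counted as well, beside 11.0% higher and 10.9% lower among all tested genes. These counts are a description and were not tested. Near Mog, 1 of 14 tested genes was higher in KO, and near Cnp, 3 of 30 were higher and 8 lower. Near Lhfpl3, 2 of 16 were higher and 2 lower, and near Ugt8a, 1 of 2 was higher.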
